A study of Homo sapiens with 27 samples.

Results

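The genes described here encode the proteasome, its regulators and its dedicated assembly factors, as measured by RNA-seq in U937 cells, a human myeloid leukemia cell line. Members were all protein-coding genes whose GENCODE symbol is PSMA, PSMB, PSMC, PSMD, PSME, PSMF or PSMG followed by a number. Of 48 such genes, 47 were matched to a row of the table, which holds 57905 gene identifiers, and 46 had a mean above 1 FPKM (fragments per length of exon and per mapped fragment of the library) over the 9 libraries. PSMB3, a constitutive 20S subunit, is not analysed here. The gene that did not pass was PSMB11, the catalytic subunit of the thymus, which was listed at 0 FPKM in 8 libraries and at 0.03 in the other.

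The proteasome degrades proteins tagged with ubiquitin. Its 20S core is a barrel of stacked rings built from alpha (PSMA) and beta (PSMB) subunits, of which PSMB5, PSMB6 and PSMB7 carry the catalytic sites. The 19S cap holds a ring of ATPases (PSMC), which unfold the substrate, and non-ATPase subunits (PSMD), which bind and remove ubiquitin. In cells exposed to interferon, and constitutively in many blood cells, PSMB8, PSMB9 and PSMB10 take the places of PSMB5, PSMB6 and PSMB7 in newly built cores, which are then called immunoproteasomes and help to make peptides for MHC class I molecules. The PSME proteins are other caps of the core, and PSMG1 to PSMG4, PSMD5, PSMD9 and PSMD10 help to assemble the core or the cap and are not part of the finished particle.

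The 3 control libraries, from cells whose vehicle was ddH2O according to the methods, were compared with 3 libraries of cells given 0.8 mg/mL matrine, an alkaloid of Sophora flavescens, for 30 min and with 3 of cells given the same dose for 24 h. Cells of every group were grown in RPMI medium with fetal bovine serum, and all are 1 cell line. Both times share 1 set of control libraries, whose time in culture is not given in the sources used here, so culture time and treatment time cannot be told apart. The labels do not say whether replicates were separate cultures, so p-values measure the spread between these libraries, which may be technical.

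Totals lay between 17314931 and 21930018 counts per library, and every pair of libraries within a group differed beyond sampling noise. Of 14 myeloid markers, 12 had a mean above 1 FPKM (MPO and CSF1R did not), and their summed level was 2879 to 3278 FPKM in the control, 2983 to 3170 at 30 min and 3395 to 3567 at 24 h. Of 8 erythroid markers 2 (KLF1 and EPOR) and of 5 lymphoid markers 2 had a mean above 1 FPKM, with summed levels of at most 7.90 and 4.14 FPKM in any library; HBG1, HBE1, CD3E, CD3D and MS4A1 were at 0. None of the 4 epithelial and fibroblast markers reached 1 FPKM, and EPCAM was at 0. Single myeloid markers moved in both directions at 24 h: the granule protease ELANE was at 885 ± 86.1 FPKM in the control and 1378 ± 68.5 at 24 h (SD, n = 3), and PRTN3, another granule protease, at 646 ± 82.0 and 300.4 ± 5.04. More rose than fell by at least 1.5-fold in the test described below. MPO, ITGAM, ITGB2, AZU1 and ELANE rose, with log2 fold changes of 2.50, 1.25, 0.93, 0.75 and 0.59. Only PRTN3 fell that far, at -1.15. MPO had 0.31 FPKM in the control and 1.84 at 24 h. Whether these shifts of the myeloid markers at 24 h have a part in the results was not tested.

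In control U937 cells the members spanned from 2.01 ± 0.17 FPKM (SD, n = 3) for PSMG4, an assembly chaperone, to 193.7 ± 19.5 for PSMA7, a subunit of the alpha ring, and their median was 38.1 FPKM. The constitutive beta subunits were the class with the highest median level, at 96.8 FPKM over 6 genes, against 38.2 for the 7 alpha subunits, 39.6 for the 6 ATPases and 38.0 for the 11 non-ATPase subunits. The assembly factors had a median of 14.4 FPKM. FPKM divides by the length of all annotated exons of a gene, which reached 10439 bases for PSMG4, so levels of subunits that stand in equal numbers in the particle need not be equal on this scale. Of the inducible subunits, PSMB8 (73.7 ± 5.24 FPKM) stood above the constitutive PSMB5 (44.5 ± 3.33 FPKM), whereas PSMB9 (3.66 ± 0.70 FPKM) and PSMB10 (16.8 ± 0.52 FPKM) stood below PSMB6 (72.1 ± 5.05 FPKM) and PSMB7 (88.2 ± 5.99 FPKM). PSMB8 overlaps PSMB9 and an antisense gene over 17.3% of its exonic bases in GENCODE release 44, and the strand setting of the counting is not given in the sources used here.

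**Figure D1:**
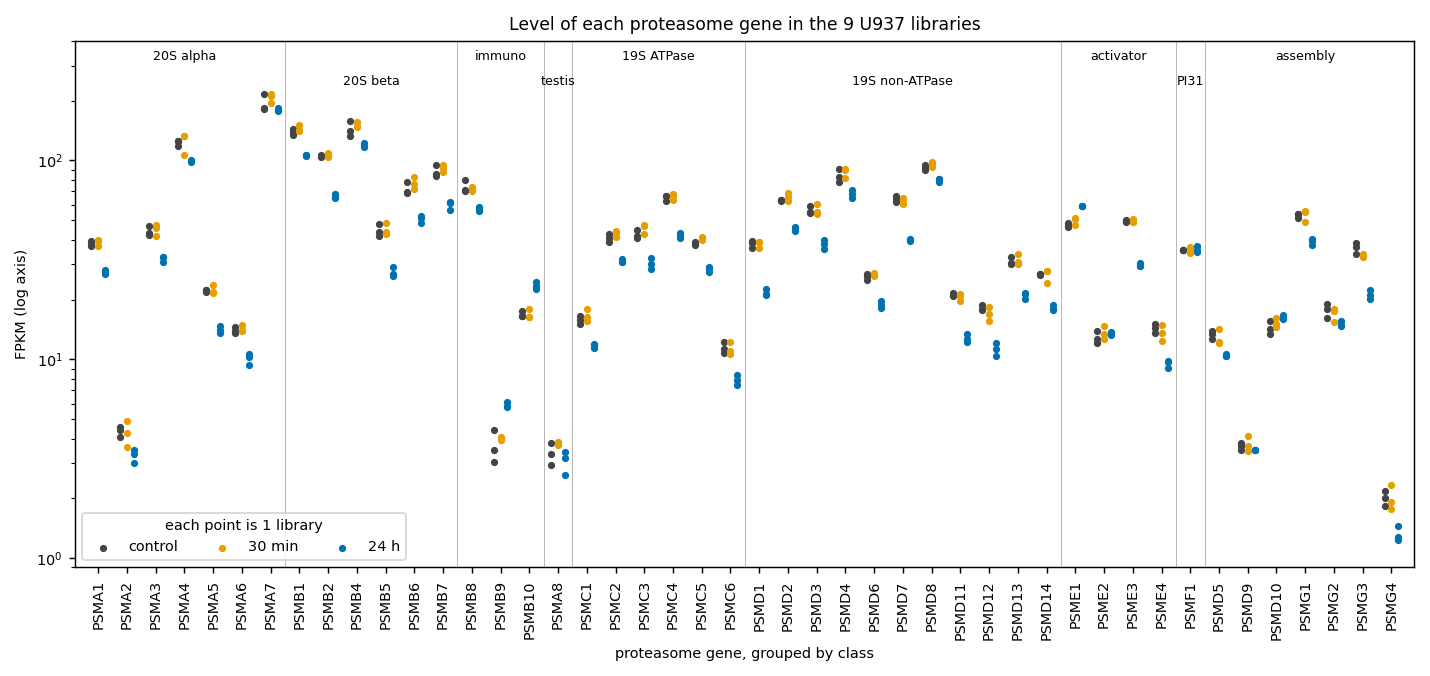
FPKM of the 46 proteasome genes (log axis) in each of the 9 libraries, grouped by class; each point is 1 library, grey for control, orange for 30 min and blue for 24 h. The orange points overlap the grey ones for each gene but PSMC5, while the blue points lie below all grey points for 37 genes and above them for 4. Among all genes tested, 31.0% lay wholly below the control at 24 h and 38.7% wholly above it.

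After 24 h of matrine most of the proteasome was lower at the mRNA level, with median log2 fold changes between -0.50 and -0.61 in the alpha ring, the beta ring, the ATPases and the other cap subunits, while PSMB9 and PSMB10 of the immunoproteasome and PSME1 of the PA28 cap were higher. The summed level of the 46 genes was 2105 to 2263 FPKM in the control libraries, 2186 to 2282 at 30 min and 1652 to 1683 at 24 h, and their share of all counts was 0.685% to 0.721%, 0.697% to 0.730% and 0.520% to 0.528%. The 24 h libraries did not overlap the others on either measure. In bulk RNA, fewer cells of a type and less RNA per cell cannot be told apart, and both measures are relative to the other mRNAs of the library.

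The counts were tested gene by gene with edgeR's quasi-likelihood test over all genes with a mean above 1 FPKM in the 6 libraries of a comparison, and a call needed both a Benjamini-Hochberg adjusted p under 0.05 and a change of 1.5-fold or more. At 24 h, 16 of the 46 members (34.8%) were called down-regulated, beside 11.2% of the 12035 genes tested, and 1 (PSMB9) was called up-regulated, beside 15.1% of them. By the adjusted p alone, 37 members (80.4%) were lower, beside 31.8% of all genes tested, and 3 (PSMB9, PSMB10 and PSME1) were higher, beside 31.5%. In 37 members every 24 h library lay below every control library, which held for 31.0% of all genes tested. The median log2 fold change was -0.51 over the members, with quartiles at -0.64 and -0.33, and 0.01 over all genes tested.

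The count at 1.5-fold depends on where that threshold falls, since 15 members were between 1.4- and 1.6-fold lower. Just inside it stood PSMB7, PSMD3, PSMD14 and PSMD13, at log2 fold changes from -0.61 to -0.62. Just outside it stood PSMC6 at -0.58 and PSMB6 at -0.55. Scaled by library totals alone, those 4 genes fell outside and the count was 12. No member was 2-fold lower or higher. The members as a group kept a negative median, from -0.58 to -0.44, under every scaling, filter and tool tried.

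**Figure D2:**
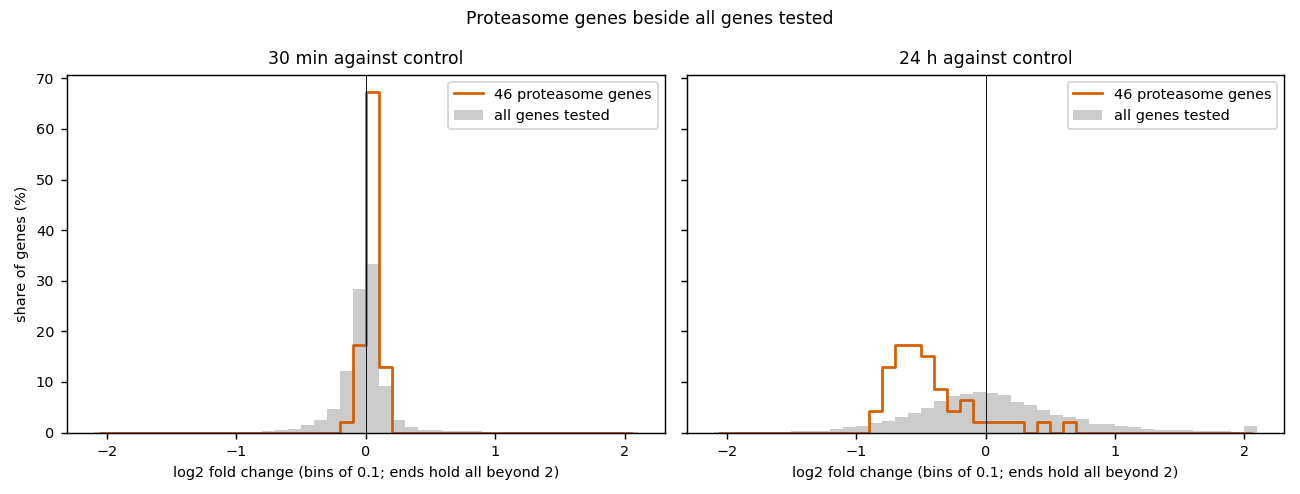
Share of genes (%) in each 0.1-wide bin of log2 fold change, for 30 min against control and for 24 h against control; grey bars are all genes tested and the orange line is the 46 proteasome genes. At 30 min the members lie between -0.12 and 0.18, and at 24 h their median is -0.51 while that of all genes tested is 0.01.

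Among the 13 constitutive 20S subunits measured, 12 were lower at 24 h by the adjusted p and 4 of these by at least 1.5-fold, with a median log2 fold change of -0.52. The matching shares of all genes tested were 31.8% and 11.2%. The alpha ring held 1 call among 7 genes, close to that second share. PSMA5 had 21.7, 22.4 and 22.2 FPKM in the 3 control libraries, 23.7, 21.8 and 21.7 at 30 min and 13.6, 14.1 and 14.8 at 24 h. Its log2 fold change at 24 h was -0.69 (SE 0.06, adjusted p = 4.9e-09), and the control and 24 h libraries were far apart relative to their spread. PSMA7, the alpha subunit with the highest level, had 182, 216 and 183 FPKM in the 3 control libraries, 212, 194 and 217 at 30 min and 178, 180.02 and 183 at 24 h. Its control and 24 h libraries overlapped, with control replicate 2 standing above the other 2, and its log2 fold change of -0.15 (SE 0.07, adjusted p = 0.058) made it the 1 constitutive subunit of the core or the cap that did not pass the adjusted p. This call depended on the setting: without control replicate 2 the log2 fold change was -0.08 (adjusted p = 0.26), and with no filter on low values it was -0.22 and passed (adjusted p = 9.4e-04). The other 5 alpha subunits (PSMA1, PSMA2, PSMA3, PSMA4 and PSMA6) lay between -0.36 and -0.52. PSMA2 and PSMA1 overlap other annotated genes over 29.7% and 26.7% of their exonic bases.

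The constitutive beta ring held 3 calls among 6 genes, beside 11.2% of all genes tested, and had a median log2 fold change of -0.58. PSMB5, the subunit with chymotrypsin-like activity and the main target of the proteasome inhibitor bortezomib, had 43.6, 48.2 and 41.7 FPKM in the 3 control libraries, 48.3, 42.8 and 43.9 at 30 min and 26.1, 27.01 and 29.02 at 24 h. Its 24 h libraries lay below all 6 others, and the log2 fold change was -0.75 (SE 0.08, adjusted p = 3.4e-08). PSMB2, a noncatalytic subunit, had 105, 107 and 104 FPKM in the 3 control libraries, 108, 106 and 104 at 30 min and 67.8, 64.5 and 65.7 at 24 h. It fell by a similar amount, at -0.72 (SE 0.05, adjusted p = 2.0e-10), with little spread in any group. PSMB7, which has trypsin-like activity, had 83.95, 95.1 and 85.6 FPKM in the 3 control libraries, 94.8, 87.7 and 92.01 at 30 min and 56.5, 61.1 and 61.9 at 24 h. Its log2 fold change was -0.61 (SE 0.07, adjusted p = 6.5e-08), the smallest of the 3 calls in this ring. PSMB6, which has caspase-like activity, had 69.5, 77.9 and 68.8 FPKM in the 3 control libraries, 82.5, 71.9 and 76.5 at 30 min and 51.5, 48.6 and 52.3 at 24 h. At -0.55 (SE 0.07, adjusted p = 1.0e-06) it was lower at 24 h but under the 1.5-fold threshold. The smallest change of the ring was that of PSMB4, with 140.3, 157 and 133 FPKM in the control against 116, 122 and 119.5 at 24 h. Its groups did not overlap, and the log2 fold change was -0.32 (SE 0.06, adjusted p = 1.7e-04).

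Within the 19S cap, all 17 subunits measured were lower at 24 h by the adjusted p, and 8 of them by at least 1.5-fold, with a median log2 fold change of -0.58. The matching shares of all genes tested were 31.8% and 11.2%. The log2 fold changes of the ATPase ring lay between -0.43 for PSMC2 and -0.68 for PSMC4. PSMC4 had 62.4, 66.5 and 66.2 FPKM in the 3 control libraries, 68.05, 62.98 and 66.1 at 30 min and 40.8, 41.8 and 42.95 at 24 h. The log2 fold change was -0.68 (SE 0.06, adjusted p = 2.9e-09). It was the 1 call among 6 ATPases, not far from the 11.2% called among all genes tested. PSMC2 had 40.9, 42.6 and 39.1 FPKM in the control against 31.01, 30.8 and 32.1 at 24 h. Its fold change was the smallest in the ring, -0.43 (SE 0.06, adjusted p = 1.9e-06), again with no overlap between the groups. PSMC3 had 40.6, 44.9 and 41.5 FPKM in the 3 control libraries, 47.5, 42.5 and 46.8 at 30 min and 30.3, 28.6 and 32.4 at 24 h. PSMC6 had 12.2, 11.3 and 10.8 FPKM in the 3 control libraries, 12.3, 11.1 and 10.7 at 30 min and 8.33, 7.92 and 7.44 at 24 h. In neither gene did the control and 24 h libraries overlap, and the log2 fold changes were -0.52 and -0.58. PSMC5, whose libraries are given with the 30 min comparison, was at -0.48. For PSMC1, at -0.47, 76.1% of the exonic bases overlap NRDE2 on the other strand, so the reads of this pair may not be separated.

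The 11 non-ATPase subunits held 7 of the 16 down-regulated calls, beside a share of 11.2% called down-regulated among all genes tested. PSMD1, the large scaffold that binds ubiquitin receptors and the chain-editing enzyme UCHL5 through ADRM1, had 38.3, 36.3 and 39.5 FPKM in the 3 control libraries, 38.7, 39.02 and 36.4 at 30 min and 21.3, 22.5 and 20.99 at 24 h. It fell most of all members, by 1.82-fold, with a log2 change of -0.86 (SE 0.06, adjusted p = 3.7e-11). PSMD11, a subunit of the lid, had 21.6, 20.9 and 21.1 FPKM in the 3 control libraries, 20.9, 21.2 and 19.6 at 30 min and 13.4, 12.3 and 12.7 at 24 h. PSMD12, another lid subunit, had 18.7, 17.6 and 17.9 FPKM in the 3 control libraries, 17, 18.4 and 15.6 at 30 min and 12.2, 11.2 and 10.4 at 24 h. Both fell by close to the same amount, with log2 fold changes of -0.77 (SE 0.06, adjusted p = 3.1e-10) and -0.73 (SE 0.07, adjusted p = 1.4e-08). PSMD7, the partner of the deubiquitinase PSMD14, had 61.9, 65.99 and 64.1 FPKM in the 3 control libraries, 64.7, 63.2 and 60.2 at 30 min and 39.7, 40.3 and 39.5 at 24 h. PSMD14, which cuts ubiquitin chains off the substrate, had 27.02, 26.9 and 26.6 FPKM in the 3 control libraries, 27.8, 27.98 and 24.2 at 30 min and 17.9, 17.7 and 18.8 at 24 h. The log2 fold changes were -0.73 (SE 0.06, adjusted p = 5.2e-10) and -0.61 (SE 0.06, adjusted p = 2.5e-08), and no 24 h library of either gene reached a control library; 31.2% of the exonic bases of PSMD7 overlap an antisense gene.

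PSMD13 had 30.3, 32.6 and 30.4 FPKM in the 3 control libraries, 33.8, 30.2 and 30.8 at 30 min and 21.5, 20.03 and 21.3 at 24 h. PSMD3 had 54.4, 58.98 and 55.1 FPKM in the 3 control libraries, 54.8, 53.6 and 60.7 at 30 min and 38.2, 36.04 and 39.8 at 24 h. These lid subunits were just past the threshold, at -0.62 (SE 0.06, adjusted p = 3.6e-08) and -0.61 (SE 0.06, adjusted p = 3.5e-08). PSMD2, a scaffold of the base, had 62.4, 62.9 and 63.5 FPKM in the 3 control libraries, 65.6, 62.8 and 68.8 at 30 min and 44.2, 46.1 and 46 at 24 h. The lid subunit PSMD6 had 25.2, 26.3 and 26.9 FPKM in the 3 control libraries, 26.9, 27.2 and 26.1 at 30 min and 18.1, 18.9 and 19.6 at 24 h. Each was lower at 24 h than in the control by a log2 fold change of -0.52, short of the threshold. The ubiquitin receptor PSMD4 was at -0.36 (SE 0.07, adjusted p = 8.5e-05). PSMD8 changed least of the cap, with 91.3, 95.3 and 89.3 FPKM in the control against 77.7, 80.3 and 81 at 24 h. Its log2 fold change was -0.26 (SE 0.05, adjusted p = 3.5e-04).

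**Figure D3:**
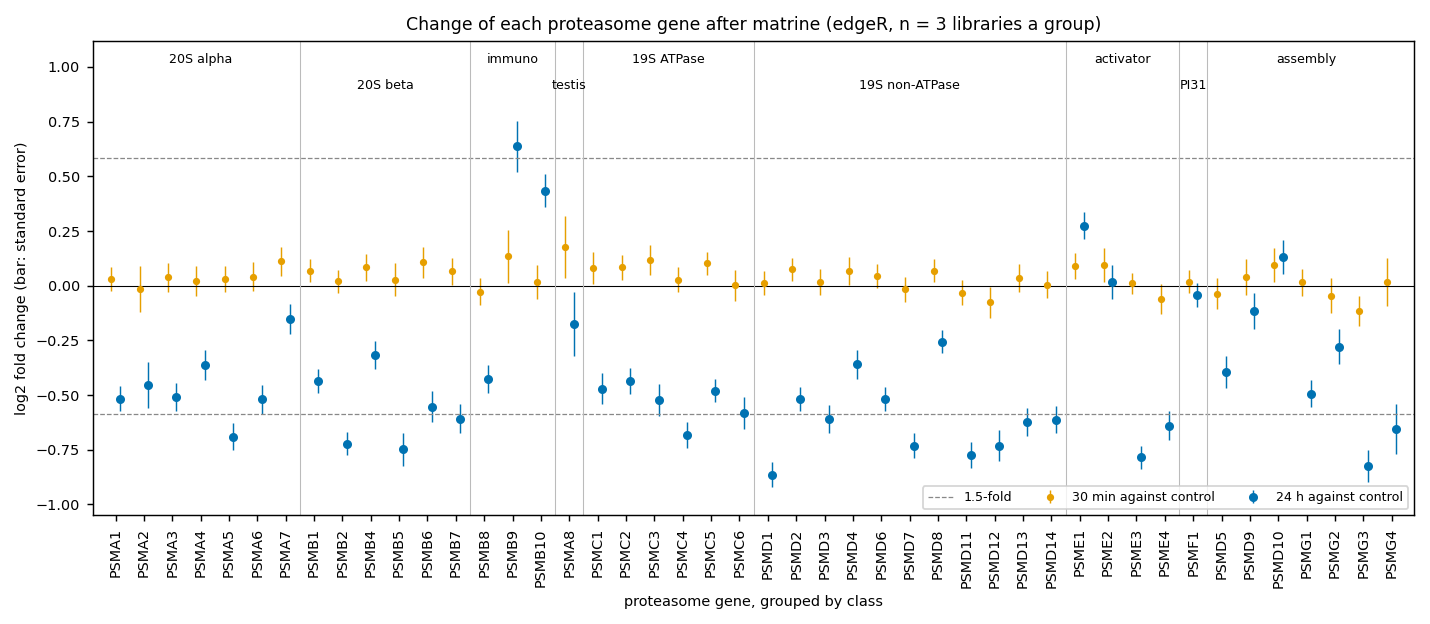
Log2 fold change of each of the 46 proteasome genes by class (edgeR, bars: standard error, n = 3 libraries a group), for 30 min against control in orange and 24 h against control in blue; dashed lines mark 1.5-fold. All 30 constitutive 20S and 19S subunits lie below 0 at 24 h, from -0.15 to -0.86, as do 5946 of all 12035 genes tested. PSMB9, PSMB10, PSME1, PSME2 and PSMD10 lie above 0, of which PSME2 and PSMD10 did not pass the adjusted p.

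The 3 inducible subunits did not move together: 1 was lower and 2 were higher at 24 h by the adjusted p, beside 31.8% and 31.5% of all genes tested. PSMB8, which replaces PSMB5, had 71.4, 79.7 and 70.02 FPKM in the 3 control libraries, 73.6, 70.2 and 71.5 at 30 min and 55.7, 56.4 and 58.2 at 24 h. It was lower at 24 h, with a log2 fold change of -0.43 (SE 0.06, adjusted p = 5.7e-06), in the direction of the constitutive subunits. PSMB9, which replaces PSMB6, had 3.52, 4.42 and 3.05 FPKM in the 3 control libraries, 3.99, 4.07 and 3.92 at 30 min and 5.78, 6.09 and 5.86 at 24 h. All 24 h libraries stood above the other 6, control replicate 3 was the lowest, and the log2 fold change was 0.64 (SE 0.12, adjusted p = 7.6e-05), or 1.56-fold higher. Without control replicate 3 it was 0.52 and no longer past 1.5-fold. PSMB10, which replaces PSMB7, had 16.6, 17.4 and 16.5 FPKM in the 3 control libraries, 16.3, 16.3 and 17.99 at 30 min and 22.5, 23.5 and 24.5 at 24 h. Its groups did not overlap and it was 1.35-fold higher, a log2 fold change of 0.44 (SE 0.08, adjusted p = 4.8e-05). PSMB10 overlaps another annotated gene of the same strand over 39.4% of its exonic bases.

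The ratio of each inducible subunit to the constitutive subunit whose place it takes was computed within each library, which leaves library scaling out. PSMB9 to PSMB6 was 0.0507, 0.0567 and 0.0443 in the 3 control libraries, 0.0484, 0.0566 and 0.0512 at 30 min and 0.112, 0.125 and 0.112 at 24 h. PSMB10 to PSMB7 was 0.197, 0.183 and 0.192 in the 3 control libraries, 0.172, 0.186 and 0.196 at 30 min and 0.399, 0.384 and 0.396 at 24 h. Both ratios were thus more than 2-fold higher at 24 h, by 2.31-fold and 2.06-fold. PSMB8 to PSMB5 was 1.64, 1.65 and 1.68 in the 3 control libraries, 1.53, 1.64 and 1.63 at 30 min and 2.13, 2.09 and 2.00 at 24 h, a rise of 1.25-fold although both genes were lower. For each of the 3 ratios the 24 h and control libraries did not overlap, and the two-sided exact permutation test gave p = 0.1, the smallest that 3 libraries against 3 allow, and an adjusted p of 0.1 over the 3 ratios. At 30 min the log2 ratios differed from the control by -0.05 for PSMB8 to PSMB5, 0.05 for PSMB9 to PSMB6 and -0.05 for PSMB10 to PSMB7, with exact permutation p = 0.1, 0.8 and 0.6 and adjusted p = 0.3, 0.8 and 0.8. The first of these is again the smallest possible p. Every PSMB8 to PSMB5 ratio at 30 min lay below the control, by a small margin (highest 1.63964 against lowest 1.63981).

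**Figure D4:**
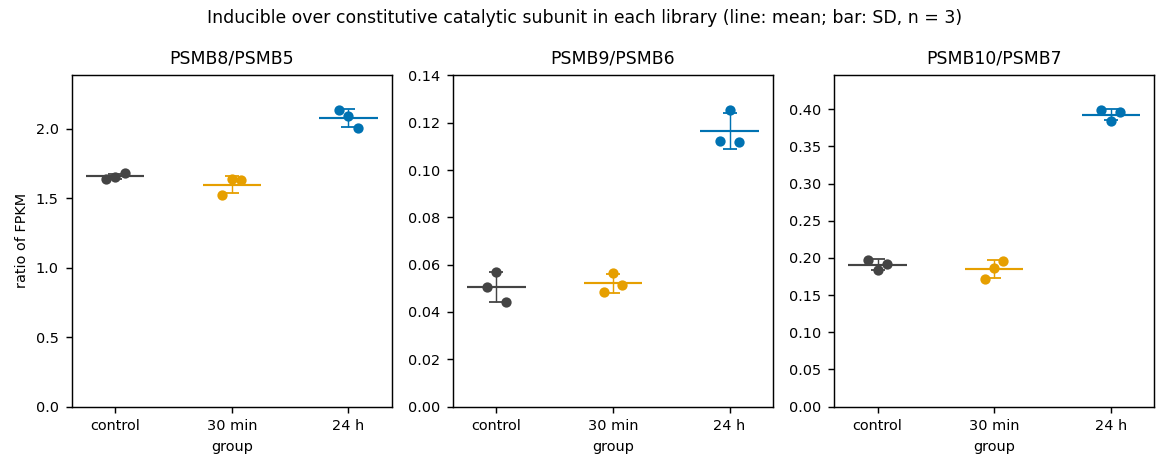
Ratio of the FPKM of each inducible catalytic subunit to that of its constitutive counterpart (linear axes from 0) in each library; points are libraries, lines are means and bars are SD (n = 3). The 24 h points lie above every control and 30 min point in all 3 panels, at means of 2.08, 0.117 and 0.393.

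The other caps of the core were split, with 2 of the 4 genes lower and 1 higher at 24 h by the adjusted p. The shares of all genes tested were 31.8% and 31.5%, and counts over 4 genes were not tested against them. PSME1 and PSME2 form the interferon-inducible PA28 ring in the cytoplasm. PSME1 had 46.95, 48.5 and 46.2 FPKM in the 3 control libraries, 51.5, 50.6 and 47.4 at 30 min and 59.2, 58.9 and 59.1 at 24 h. It was higher at 24 h in every library, 1.21-fold, a log2 fold change of 0.28 (SE 0.06, adjusted p = 4.7e-04). PSME2 had 12.7, 13.8 and 12.1 FPKM in the 3 control libraries, 14.7, 12.7 and 13.5 at 30 min and 13.4, 13.8 and 13.3 at 24 h. Its groups overlapped and the log2 fold change was 0.02 (SE 0.08, adjusted p = 0.85), with a sign that turned negative without control replicate 1 or 3 and with no filter on low values. PSME3, the nuclear member of the family, had 49.8, 49.1 and 50.1 FPKM in the 3 control libraries, 48.96, 50.7 and 49.2 at 30 min and 29.5, 30.4 and 29.6 at 24 h. Its decrease was the third largest of all members, after those of PSMD1 and PSMG3, at -0.78 (SE 0.05, adjusted p = 3.6e-11). PSME4, the large activator PA200, had 14.4, 13.6 and 15.1 FPKM in the 3 control libraries, 13.6, 14.9 and 12.4 at 30 min and 9.72, 9.06 and 9.77 at 24 h. Its 24 h libraries lay below the rest and it fell by 1.56-fold, a log2 fold change of -0.64 (SE 0.07, adjusted p = 4.0e-08). PSMF1, known as PI31, had 35.6, 35.6 and 35.6 FPKM in the 3 control libraries, 36.1, 34.4 and 36.8 at 30 min and 37.1, 34.8 and 35.3 at 24 h. Its groups overlapped, and the log2 fold change was -0.04 (SE 0.05, adjusted p = 0.51), with a sign that turned with the scaling.

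Of the 7 assembly factors, 5 were lower at 24 h by the adjusted p and 2 by at least 1.5-fold, with a median log2 fold change of -0.39. The matching shares of all genes tested were 31.8% and 11.2%, and counts over 7 genes were not tested against them. PSMG3, which with PSMG4 chaperones the forming alpha ring, had 33.8, 38.3 and 36.7 FPKM in the 3 control libraries, 33.1, 32.5 and 33.98 at 30 min and 21.01, 20.1 and 22.4 at 24 h. The log2 fold change was -0.82 (SE 0.07, adjusted p = 3.1e-09), the second largest decrease of all members. PSMG4 had 1.84, 2.18 and 2.02 FPKM in the 3 control libraries, 2.35, 1.78 and 1.91 at 30 min and 1.28, 1.45 and 1.24 at 24 h. It fell from a low level, with a log2 fold change of -0.66 (SE 0.11, adjusted p = 4.2e-05), and of -0.38 with limma on log2(FPKM + 1). PSMG1 and PSMG2, the other alpha ring pair, were at -0.49 (SE 0.06, adjusted p = 6.2e-07) and -0.28 (SE 0.08, adjusted p = 0.0045). Of the chaperones of the 19S base, PSMD5 was lower, at -0.39 (SE 0.07, adjusted p = 7.3e-05), and PSMD9 and PSMD10 were not called, at -0.11 (SE 0.08, adjusted p = 0.24) and 0.13 (SE 0.08, adjusted p = 0.15). PSMD10, which is also known as gankyrin, had 14.2, 15.6 and 13.4 FPKM in the control against 15.9, 16.2 and 16.8 at 24 h. Its 24 h libraries all stood above the control libraries, as they did for 38.7% of all genes tested, and it did not pass the test, though it did with library totals alone (log2 fold change 0.18, adjusted p = 0.048). PSMA8, the testis-specific copy of PSMA7, had 3.78, 3.33 and 2.96 FPKM in the 3 control libraries, 3.76, 3.73 and 3.83 at 30 min and 3.42, 2.62 and 3.21 at 24 h. Its level is uncertain, since reads of the far more abundant PSMA7 may be counted on this close copy, and its log2 fold change was -0.17 (SE 0.15, adjusted p = 0.31).

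At 30 min no proteasome gene passed the test. Of the 46 members, 0 were called down-regulated, beside 0.544% of 11587 genes tested, and 0 were called up-regulated, beside 0.0949%. By the adjusted p alone the counts were also 0 and 0, beside 1.33% and 0.293%. No member reached an unadjusted p below 0.05. DESeq2 and limma called 0 as well. The log2 fold changes lay between -0.12 for PSMG3 and 0.18 for PSMA8, with a median of 0.03 over the members and -0.0043 over all genes tested. In 0 members did all 30 min libraries stand below the control libraries, which held for 8.91% of all genes tested. In 1 member, the ATPase PSMC5, all 30 min libraries stood above the control libraries, which held for 4.89% of all genes tested. It had 38.2, 38.9 and 37.7 FPKM in the 3 control libraries, 41.4, 40.8 and 39.98 at 30 min and 29.03, 28.5 and 27.6 at 24 h, and the log2 fold change was 0.10 (SE 0.05, adjusted p = 0.5).

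Compared directly with the 30 min libraries, 22 members (47.8%) were down-regulated at 24 h, beside 11.5% of 11981 genes tested, and 0 were up-regulated, beside 15.4%. By the adjusted p alone 39 were lower and 3 higher, beside 32.6% and 32.5%. All 24 h libraries stood below all 30 min libraries in 38 members and above them in 3, beside 28.6% and 39.9% of all genes tested. This comparison shares the 24 h libraries with the one against the control and so is not independent of it. All 16 genes down-regulated against the control were also among the 22, and the other 6 were PSMB6, PSMC3, PSMC5, PSMC6, PSMD2 and PSMD6. PSMD1 was again the most reduced, at -0.90 (SE 0.06, adjusted p = 2.0e-11). PSMB9, PSMB10 and PSME1 were higher, at 0.48 (SE 0.12, adjusted p = 9.7e-04), 0.40 (SE 0.08, adjusted p = 1.1e-04) and 0.17 (SE 0.06, adjusted p = 0.02). PSME1 no longer passed with no filter on low values (adjusted p = 0.28). PSMA7 was lower in this comparison, at -0.28 (SE 0.07, adjusted p = 0.001).

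Genes that work beside the particle were read from lists written with earlier results of these data known. Of 11 partner genes tested, 10 were lower at 24 h by the adjusted p, 2 of them by at least 1.5-fold, and 0 were higher. The matching shares of all genes tested were 31.8%, 11.2% and 31.5%. UCHL5, a deubiquitinase of the 19S cap, had 23.9, 24.1 and 23.7 FPKM in the control against 12.96, 12.7 and 12.1 at 24 h. ADRM1, the ubiquitin receptor that anchors UCHL5, had 90.2, 101 and 90.03 FPKM in the control against 56.6, 61.9 and 61.7 at 24 h. Both genes fell, with log2 fold changes of -0.97 (SE 0.08, adjusted p = 2.0e-09) and -0.69 (SE 0.07, adjusted p = 2.8e-08). POMP, the maturation factor of the 20S core, was at -0.38 (SE 0.08, adjusted p = 3.0e-04) and USP14, the other cap deubiquitinase, at -0.44 (SE 0.06, adjusted p = 3.6e-06).

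The transcriptional control list is built around NFE2L1, also called NRF1, the factor that is processed by NGLY1 and DDI2 and induces proteasome genes when proteasome activity is short. Of its 9 genes tested, 3 were lower and 5 higher at 24 h by the adjusted p, beside 31.8% and 31.5% of all genes tested. The 5 include NFE2L1 and NFE2L2, which with no filter on low values did not pass, at 0.12 (adjusted p = 0.13) and 0.11 (adjusted p = 0.27). NFE2L1 itself had 30.7, 28.9 and 31.2 FPKM in the control against 36.3, 35.98 and 34.95 at 24 h, a log2 fold change of 0.19 (SE 0.05, adjusted p = 0.0042). The protease DDI2 had 7.73, 6.72 and 7.96 FPKM in the control against 4.71, 5.3 and 4.66 at 24 h. It fell past the 1.5-fold threshold, with a log2 fold change of -0.66 (SE 0.07, adjusted p = 1.5e-07), but was at -0.52 and under it with limma on log2(FPKM + 1). The small MAF proteins pair with NFE2L1 and NFE2L2 on DNA, and their genes split at 24 h. At 30 min every library of MAFF, MAFG and MAFK lay below every control library, which held for 8.91% of all genes tested. The log2 fold changes were then -0.39, -0.22 and -0.37, and no small MAF gene passed the adjusted p. MAFG, the one at the highest level, had 25.5, 25.7 and 25.5 FPKM in the control against 29.4, 30.3 and 30.1 at 24 h. It was higher by less than 1.5-fold, with a log2 fold change of 0.18 (SE 0.06, adjusted p = 0.015). MAFK had 6.32, 6.25 and 5.83 FPKM in the control against 2.89, 3.35 and 4.21 at 24 h and fell, with a log2 fold change of -0.86 (SE 0.11, adjusted p = 1.3e-06). MAFF had 2.54, 2.13 and 2.58 FPKM in the control against 4.1, 3.73 and 3.46 at 24 h and rose, with a log2 fold change of 0.59 (SE 0.14, adjusted p = 0.0012), a call that 7 alternatives took under 1.5-fold.

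Ubiquitin genes and shuttle receptors held no call at 1.5-fold: 9 of 11 were lower and 2 higher by the adjusted p. The shuttles UBQLN4 and RAD23B were at -0.55 (SE 0.05, adjusted p = 2.0e-08) and -0.53 (SE 0.05, adjusted p = 2.4e-08), and at -0.62 and -0.59, past 1.5-fold, with no filter on low values. Genes of the p97 segregase, which extracts substrates for the proteasome, also held no call at 1.5-fold, with 4 of 7 lower and 1 higher by the adjusted p, and VCP itself at -0.24 (SE 0.05, adjusted p = 4.5e-04). Among all genes tested, 31.8% were lower and 31.5% higher by the adjusted p, and 11.2% and 15.1% were called. Counts in lists this short were not tested against those shares. The chaperonin TRiC, another large ring complex taken for comparison, had 8 of 9 genes down-regulated, beside 11.2% of all genes tested. Its median log2 fold change was -0.87 against -0.51 for the proteasome. TCP1 was at -1.09 (SE 0.05, adjusted p = 4.3e-13). The exception was CCT6B, a testis-enriched subunit, which had 0.61, 0.54 and 0.48 FPKM in the control against 1.9, 1.8 and 2.01 at 24 h and rose with a log2 fold change of 1.75 (SE 0.17, adjusted p = 1.1e-08) (0.91 with limma on log2(FPKM + 1)), and which passed the filter on low values through its 24 h libraries.

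The list of interferon signaling and peptide transport genes went the other way. Of 8 genes tested, from 10 listed (IRF9 and ERAP2 were below 1 FPKM in every library), 7 were higher at 24 h by the adjusted p and 4 of these by at least 1.5-fold. Among all genes tested, 31.5% were higher by the adjusted p and 15.1% were called up-regulated. STAT2, a factor of the type I interferon response, had 3.39, 3.04 and 3.05 FPKM in the control against 13.5, 13.2 and 12.9 at 24 h and rose, with a log2 fold change of 2.01 (SE 0.08, adjusted p = 6.4e-15). IRF1, which binds the promoters of immunoproteasome genes, had 2.03, 1.9 and 1.95 FPKM in the control against 3.99, 3.73 and 3.8 at 24 h. It rose, with a log2 fold change of 0.92 (SE 0.11, adjusted p = 2.9e-07). TAP1, which shares its promoter region with PSMB9 and carries peptides into the endoplasmic reticulum, had 6.4, 6.35 and 6.87 FPKM in the control against 11.2, 10.5 and 10.4 at 24 h. Its log2 fold change was 0.66 (SE 0.07, adjusted p = 1.1e-07), close to that of PSMB9. TAPBP, which loads peptides onto MHC class I, had 18.5, 18.2 and 19.3 FPKM in the control against 30.1, 29.9 and 29.3 at 24 h and rose by 0.63 (SE 0.06, adjusted p = 3.4e-09) on the log2 scale, but was at 0.56 and under 1.5-fold with no filter on low values. ERAP1 and NLRC5 were higher by less than 1.5-fold, at 0.49 and 0.28, the latter with an adjusted p of up to 0.065 when a library was left out. TAP2, the partner of TAP1, fell, with 9.56, 10 and 9.98 FPKM in the control against 5.99, 6.18 and 6.06 at 24 h and a log2 fold change of -0.74 (SE 0.07, adjusted p = 7.7e-09). None of the 6 lists held a call at 30 min.

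**Figure D5:**
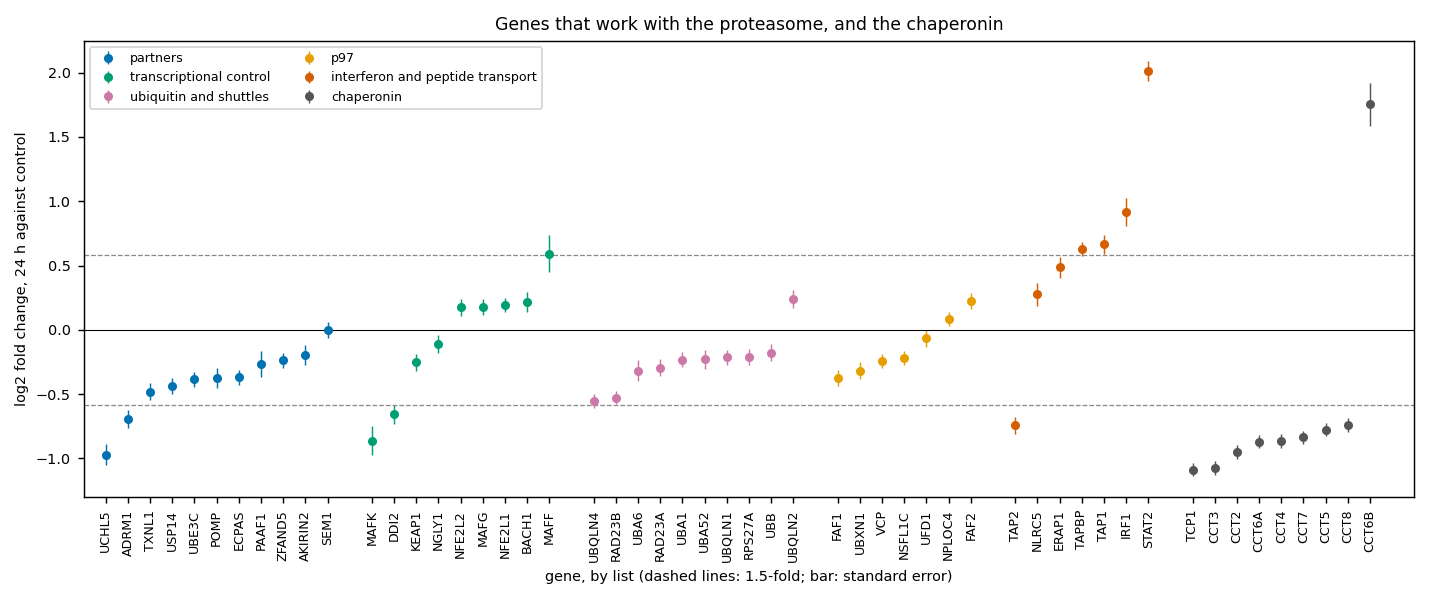
Log2 fold change at 24 h against control of genes that work with the proteasome and of the chaperonin, by list (bars: standard error, n = 3 libraries a group; dashed lines: 1.5-fold). Partners and chaperonin lie mostly below 0, with UCHL5 at -0.97 and TCP1 at -1.09, whereas the interferon and peptide transport genes plotted lie above 0, led by STAT2 at 2.01, except TAP2 at -0.74.

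The promoters of the genes that stand for each direction are printed here, so that their letters can be read beside the values. RefSeq windows of GRCh38.p14, from 250 bases before the start of the gene to 50 bases from it on, 300 bases in all, were at hand for 42 of the 48 genes, 40 of them measured here above 1 FPKM. The capitals mark matches on either strand to the core of the antioxidant response element (ARE, TGACNNNGC), which NFE2L1 and NFE2L2 bind with small MAF proteins, to the CCAAT box, or to the core of an interferon response element (IRF, 2 copies of GAAA with any 2 letters between them). None of the 3 motifs contains another. The first pair belongs to the most reduced member and to the most reduced catalytic subunit. PSMD1 (chr2:231056617-231056916, plus strand) has an ARE core beginning at base 40 of the transcribed part, and PSMB5 (chr14:23035171-23035470, minus strand) has a CCAAT box ending 160 bases before the start.
PSMD1: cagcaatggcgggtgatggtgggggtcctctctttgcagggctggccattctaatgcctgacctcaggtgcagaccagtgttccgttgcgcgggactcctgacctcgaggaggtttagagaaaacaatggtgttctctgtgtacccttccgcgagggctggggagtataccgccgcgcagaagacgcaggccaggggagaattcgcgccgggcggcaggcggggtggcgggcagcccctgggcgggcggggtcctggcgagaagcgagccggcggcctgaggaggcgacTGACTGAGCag
PSMB5: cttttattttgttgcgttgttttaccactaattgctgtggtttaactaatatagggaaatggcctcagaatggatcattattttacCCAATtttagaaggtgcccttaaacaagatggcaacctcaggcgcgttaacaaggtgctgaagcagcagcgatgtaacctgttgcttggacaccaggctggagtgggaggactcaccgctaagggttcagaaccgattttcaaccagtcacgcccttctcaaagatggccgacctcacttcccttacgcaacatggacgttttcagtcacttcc

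The next 4 belong to the 3 members that were higher and to TAP1, the neighbor of PSMB9. PSMB9 (chr6:32853942-32854241, plus strand) has an ARE core, on the other strand, and a CCAAT box. PSMB10 (chr16:67936801-67937100, minus strand) has an IRF core that ends 12 bases before the start. PSME1 (chr14:24135944-24136243, plus strand) has an ARE core ending 78 bases before the start and an IRF core, on the other strand, from base 6 of the transcribed part. TAP1 (chr6:32853655-32853954, minus strand) has 2 overlapping IRF cores covering 16 letters and a CCAAT box.
PSMB9: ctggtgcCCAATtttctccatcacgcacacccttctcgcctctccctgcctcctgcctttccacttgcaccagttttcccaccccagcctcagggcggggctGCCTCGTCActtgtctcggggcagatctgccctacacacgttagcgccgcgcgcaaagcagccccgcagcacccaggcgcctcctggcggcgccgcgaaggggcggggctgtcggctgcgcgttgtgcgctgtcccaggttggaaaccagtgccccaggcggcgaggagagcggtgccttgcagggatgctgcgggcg
PSMB10: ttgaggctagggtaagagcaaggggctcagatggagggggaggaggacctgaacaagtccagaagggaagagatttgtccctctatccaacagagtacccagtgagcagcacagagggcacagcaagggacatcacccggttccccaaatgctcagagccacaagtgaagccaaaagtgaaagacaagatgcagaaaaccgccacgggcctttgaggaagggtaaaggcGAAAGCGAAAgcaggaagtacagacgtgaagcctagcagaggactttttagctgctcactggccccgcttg
PSME1: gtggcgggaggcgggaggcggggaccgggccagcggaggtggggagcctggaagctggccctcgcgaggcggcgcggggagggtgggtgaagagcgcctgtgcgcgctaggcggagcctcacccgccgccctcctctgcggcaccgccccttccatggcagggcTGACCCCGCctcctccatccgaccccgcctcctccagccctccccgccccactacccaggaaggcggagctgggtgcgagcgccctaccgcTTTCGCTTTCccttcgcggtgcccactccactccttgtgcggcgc
TAP1: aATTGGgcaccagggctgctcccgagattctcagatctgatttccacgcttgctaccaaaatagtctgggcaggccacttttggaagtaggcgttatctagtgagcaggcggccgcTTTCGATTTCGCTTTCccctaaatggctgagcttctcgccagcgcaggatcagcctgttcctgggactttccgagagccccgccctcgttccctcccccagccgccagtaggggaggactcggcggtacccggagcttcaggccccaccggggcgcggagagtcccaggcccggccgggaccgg

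TAP1 and PSMB9 are transcribed away from each other from starts 488 bases apart, and their windows share 13 bases. The IRF letters stand 119 bases before the TAP1 start and, outside the PSMB9 window, 354 bases before the PSMB9 start. The PSMB9 window itself holds no IRF core, and no other member was read beyond its window. That of PSMB8, the inducible subunit that was lower at 24 h, holds no ARE core, CCAAT box or IRF core. Over the 40 members with a window, the IRF core was found in 6 (15%: PSMA4, PSMB4, PSMB10, PSME1, PSME2 and PSMG4), beside 3.65% of all 27305 windows. It stood in 2 of the 3 members that were higher at 24 h and in 3 of the 32 that were lower. The ARE core was found in 12 members (30%), beside 13.6% of all windows, 2 of the 3 higher and 8 of the 32 lower. The CCAAT box stood in 17 (42.5%), beside 35.7%, 1 of the 3 higher and 15 of the 32 lower. The E-box CACGTG was in 2 members (5%), beside 7.43%, 0 of the 3 higher and 1 of the 32 lower. The interferon gamma motif GAS (TTCNNNGAA) was in 5 (12.5%), beside 7.88%, 0 of the 3 higher and 4 of the 32 lower. In windows of protein-coding genes the shares were 3.17% for the IRF core, 14.3% for ARE, 36.5% for CCAAT, 8.89% for the E-box and 6.98% for GAS. The split by direction rests on 3 higher genes and was not tested. A match is a run of letters and not a measured binding site.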

How the data were processed

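RNA of U937 cells in 3 groups of 3 libraries was sequenced after TRIzol extraction. The authors trimmed reads with cutadapt 1.9.1, aligned them with HISAT2 2.0.1 and counted them per gene with HTSeq 0.6.1, per the labels, and deposited 1 table of raw counts and FPKM under Ensembl identifiers. The deposited FPKM divide the counts by exon length and library total and are rounded. The labels name GRCh37 and the methods name hg38, so no gene coordinates are given beyond RefSeq's promoter windows. Annotation release, strand setting and multimapping rule are not given in the sources used here. Of 57905 identifiers, 51996 were matched to a GENCODE release 44 symbol. The HL-60 and K562 samples were not used here.

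Counts of the 9 libraries were fitted together with edgeR 4.0.16 (R 4.3.3; TMM, quasi-likelihood test), with Benjamini-Hochberg adjustment over all genes above a mean of 1 FPKM in the comparison. A call needed both an adjusted p under 0.05 and a change of 1.5-fold or more. Each standard error is the size of the log2 change divided by the square root of F. The fit was tested on simulated counts. Alternatives were DESeq2 1.42.0 and its size factors, library totals alone, limma 3.58.1 on log2(FPKM + 0.1) and log2(FPKM + 1), no filter or a mean FPKM above 5, other fold thresholds, a replicate block, the 6 libraries of a comparison alone, and each library left out. Values per library are given for members called in any comparison, PSMB5 to PSMB10 and the extremes of each class; other genes come from lists of partners, transcriptional control, ubiquitin and shuttles, p97, interferon and peptide transport, chaperonin and cell line markers. Members and lists were chosen with earlier results of these data known. No column of other samples was used. Single values of some listed genes are not reported here.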

Additional observations from a re-analysis of the deposited data

Results flagged for a closer look

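The 24 h effect differed from the 30 min effect by a direct test of the 2 times. By edgeR's quasi-likelihood test, 22 of the 46 proteasome genes were down-regulated at 24 h relative to 30 min, beside 11.5% of all genes tested. By the adjusted p alone 3 (PSMB9, PSMB10 and PSME1) were higher, beside 32.5%, and PSME1 did not pass with no filter on low values. Between 30 min and the control 0 members differed by the adjusted p. Among all genes tested 1.33% were lower and 0.293% higher at 30 min. Time in culture cannot be told apart from the length of treatment in this design.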

How the results depend on the processing

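The counts and medians below are those of the 46 proteasome genes. At 24 h against control, the 16 down-regulated members became 10 with limma on log2(FPKM + 1), 37 with no fold threshold and 0 at 2-fold, and 14 to 18 with a library left out. The 1 up-regulated member, PSMB9, became 0 with no filter on low values, above a mean FPKM of 5 (which removes it), with limma on log2(FPKM + 1), at 2-fold and without control replicate 3, so that leaving out libraries gave 0 to 1; it became 3 with no fold threshold. Against 30 min, the 22 down-regulated members became 14 with library totals alone, 13 above a mean FPKM of 5, 13 and 11 with limma at a pseudocount of 0.1 and 1, 39 with no fold threshold and 0 at 2-fold, and 19 to 26 with a library left out, and the 0 up-regulated became 3 with no fold threshold. The median log2 fold change at 24 h against control, -0.51, was -0.46 with library totals alone, -0.58 with no filter, -0.46 above a mean FPKM of 5, and -0.46 and -0.44 with limma and the smaller and larger pseudocount, and -0.53 to -0.49 with a library left out. Against 30 min, -0.58 became -0.50, -0.63, -0.51, -0.49 and -0.47 in the same order, and -0.60 to -0.55 with a library left out. At 30 min against control the median of 0.03 was 0.0060 to 0.078 with a library left out, and no alternative made a call. The log2 fold change of PSMF1 at 24 h, -0.04, turned to 0.0050 with library totals alone, 0.011 above a mean FPKM of 5, and 0.0046 and 0.0045 with limma at the smaller and larger pseudocount. That of PSME2, 0.02, turned to -0.049 with no filter and to -0.0035 and -0.033 without control replicates 1 and 3, and was up to 0.062 with another library left out. Of 1481 pairs of a gene's fold change and an alternative, 1421 kept direction and side of the threshold, 36 lost a call, 17 gained one and 7 turned sign, those of PSMF1 and PSME2. Causes were not tested. The replicate numbers did not pair the libraries: deviations of same-numbered libraries correlated at -0.15 to 0.093, those of differently numbered ones at -0.14 to 0.18, and 1 of 9 libraries correlated best with its own number. With the replicate block 16 members were down-regulated and 1 was up-regulated at 24 h. Depth limits PSMA8 most, with 97 counts in its lowest library.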
